A study of Mus musculus with 80 samples.

Results

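The smooth muscle contractile genes described here are the 10 genes Myh11, Myl9, Mylk, Tpm1, Tpm2, Tagln, Cnn1, Lmod1, Des and Flna, of 21853 protein-coding genes in the GENCODE M21 annotation of the mouse genome (GRCm38, the mm10 build). They were followed through 40 lists of retinoid X receptor (RXR) peaks, one per liver, by taking every peak that overlapped a gene body. A peak is an interval in which the immunoprecipitated chromatin held more sequenced tags than the input chromatin of the same liver. Of 589904 peaks, 473740 lay over a protein-coding gene, and 868 intervals lay over the 10 members. The members were selected on the exonic peak calls of these same libraries, among genes known to act in smooth muscle, so whether they carried a peak is given as a description and was not tested.

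The livers came from 5-month-old male C57BL6/J mice given 1 of 4 treatments for 12 weeks: the control diet (Control), that diet with pioglitazone (Pio), a high-fat diet (HFD), or the high-fat diet with pioglitazone (HFD-Pio). Pio is a thiazolidinedione drug that activates the nuclear receptor PPARγ, which binds DNA as a pair with RXR. Each treatment was given to wildtype (WT) mice and to liver-specific PPARγ knockout (KO) mice, in which loxP-flanked PPARγ is removed by Cre driven from the albumin promoter of hepatocytes, so that other liver cells keep the gene. The WT mice were purchased C57BL6/J animals and carried neither the loxP alleles nor Cre. There were 8 groups of 5 livers, each from a separate mouse, with 1 RXR library and 1 input library per liver. The labels of the KO livers given Pio, HFD or HFD-Pio name RXR in the title but give no antibody. WT peak lists were called at a p cutoff of 0.001 from 2035170 to 4256749 tags, and KO lists at a q cutoff of 0.05 from 627698 to 1057899 tags, so genotype, depth and cutoff cannot be told apart. In 6 Pio-treated WT libraries the estimated fragment length was 45 to 48 bp, against at least 169 bp in the other WT libraries. RXR peak lists do not measure PPARγ or any RNA, so neither the deletion nor the labelled tissue could be checked against the level of a gene.

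Smooth muscle contracts when calcium-bound calmodulin activates a kinase that phosphorylates the regulatory light chain of myosin, which lets the myosin heads pull on actin filaments. Tropomyosin and calponin-family proteins lie along the actin filament and adjust access of myosin to it, while intermediate filaments and filamins tie the filaments to one another and to the membrane. In the liver these proteins belong mainly to the smooth muscle of the portal vessels and hepatic arteries and, in part, to activated stellate cells, and hepatocytes make little of most of them. RXR pairs with several nuclear receptors, whose binding sites differ in the spacing and orientation of the half-site AGGTCA, and the pair of PPARγ and RXR is known for a direct repeat with a spacer of 1 bp.

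The peaks over these genes lay over exons. An annotated exon was overlapped by 839 of the 868 intervals, 96.7%, and 28 more lay in introns. The last interval lay over an exon of a Tpm2 transcript that does not code for protein. Exons make up 8.71% of the members' gene bodies, close to the 7.12% over all protein-coding genes. Over all protein-coding genes 78.8% of gene-body peaks overlapped an exon. In WT livers the share was 82.1% for the members and 38.4% for all genes. In KO livers it was 98.4% for the members and 86.3% for all genes. Since the members were selected on exonic peaks, a higher share than over all genes was built into their choice and is read as a description. Counted by bases, 67.2% of the sequence under member peaks in KO livers was exonic, less than the 75.0% over all genes. The KO peaks had median widths of 242 bp over the members and 181 bp over all genes. In WT livers the share of bases was 67.0% for the members and 31.6% for all genes. Flna alone held 491 of the intervals, and without it the share over exons was 93.6%. None of the 10 promoters, taken as 250 bases before to 50 bases after the start of the gene, was overlapped by a peak in any of the 40 livers, and over all protein-coding genes 5.09% of promoters were. In whole liver, the number of cells in which a site was enriched and the enrichment per cell cannot be told apart.

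**Figure D1:**
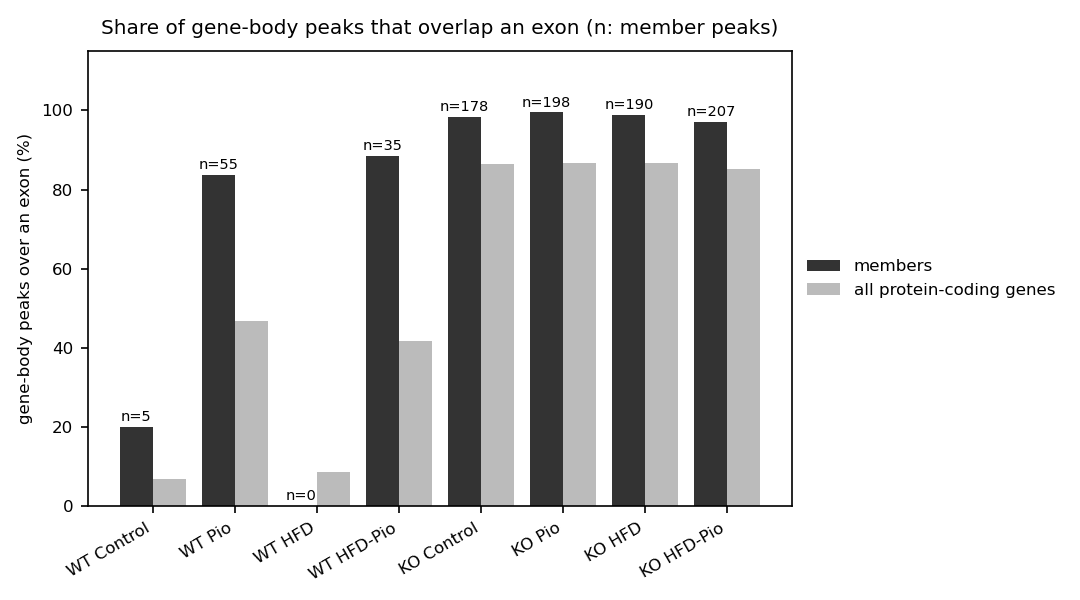
Share of gene-body peaks that overlapped an exon (y axis, %) in each of the 8 groups, for the 10 members (dark bars, with the number of member peaks above) and for all protein-coding genes (light bars). In the KO groups 97.1% to 99.5% of member peaks lay over exons, and in WT livers the share was 83.6% with Pio and 88.6% with HFD-Pio, while WT Control held 5 member peaks and WT HFD held none.

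The exons most often under a peak show what kind of sequence this was. Those of 5 members are printed on the strand of the gene, 5′ to 3′, with coding bases in capitals and up to 25 bases of intron at either end in lower case. They were chosen after their values were seen, from the mainly coding exons of each gene that were under a peak in the most livers. The sequence comes from GRCm38. The first is exon 2 of Myl9, which holds the start codon (chr2:156778545-156778753, + strand), under a peak in 8 WT and 12 KO livers.
Myl9 exon 2: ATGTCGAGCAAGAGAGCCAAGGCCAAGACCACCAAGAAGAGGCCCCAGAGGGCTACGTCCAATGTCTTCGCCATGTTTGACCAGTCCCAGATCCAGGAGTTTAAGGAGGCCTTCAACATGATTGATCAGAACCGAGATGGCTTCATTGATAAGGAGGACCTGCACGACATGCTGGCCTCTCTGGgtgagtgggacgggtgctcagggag
The next is exon 3 of Tagln, which also holds the start codon (chr9:45931557-45931761, - strand), under a peak in 6 WT and 19 KO livers.
Tagln exon 3: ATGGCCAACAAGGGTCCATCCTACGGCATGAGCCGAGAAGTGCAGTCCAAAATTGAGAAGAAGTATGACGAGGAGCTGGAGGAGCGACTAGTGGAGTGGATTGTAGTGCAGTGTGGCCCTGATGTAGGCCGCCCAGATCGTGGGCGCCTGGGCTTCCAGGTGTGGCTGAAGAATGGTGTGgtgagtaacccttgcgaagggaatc
Exon 6 of Tpm1 (chr9:67033851-67034018, - strand) was under a peak in 3 WT and 20 KO livers, and its counterpart, exon 5 of Tpm2 (chr4:43519364-43519531, - strand), in 5 WT and 14 KO livers.
Tpm1 exon 6: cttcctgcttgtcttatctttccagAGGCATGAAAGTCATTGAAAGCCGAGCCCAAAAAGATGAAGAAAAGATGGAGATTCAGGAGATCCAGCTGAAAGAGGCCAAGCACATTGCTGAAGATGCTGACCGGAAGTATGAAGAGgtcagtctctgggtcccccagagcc
Tpm2 exon 5: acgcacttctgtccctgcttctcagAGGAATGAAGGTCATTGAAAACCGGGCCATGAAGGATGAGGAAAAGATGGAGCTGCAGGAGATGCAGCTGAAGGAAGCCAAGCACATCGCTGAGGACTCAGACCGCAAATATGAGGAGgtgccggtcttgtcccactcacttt
Exon 31 of Flna (chrX:74230481-74230778, - strand) was under a peak in 0 WT and 20 KO livers.
Flna exon 31: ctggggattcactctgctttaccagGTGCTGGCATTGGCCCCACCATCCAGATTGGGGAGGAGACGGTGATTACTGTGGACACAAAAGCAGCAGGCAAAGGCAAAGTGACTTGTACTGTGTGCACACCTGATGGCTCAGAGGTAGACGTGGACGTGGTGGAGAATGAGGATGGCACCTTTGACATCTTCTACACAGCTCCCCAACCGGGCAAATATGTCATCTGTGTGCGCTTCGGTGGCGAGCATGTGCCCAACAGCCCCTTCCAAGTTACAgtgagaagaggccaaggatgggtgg

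The paired tropomyosin exons are both 118 bp long and are identical at 96 positions, 81.4%, with a longest shared run of 12 bases. A 50-base read that lies within one of them thus has no exact copy in the other. Myl9 is 85.8% and 86.4% identical to Myl12a and Myl12b, the nonmuscle light chains, over 522 and 521 aligned transcript bases, and how its tags were shared out among these genes was not tested. Tagln shares 108 exonic bases with Pcsk7 on the opposite strand, and peak calling does not use strand.

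The motif of the PPARγ and RXR pair was searched as a direct repeat of AGGTCA with 1 base of any kind between the copies, on both strands and with up to 2 mismatches, in 201-bp windows around the strongest summit of each merged exonic site. Of the members' 63 exonic sites 4 held a match, 6.35%, and none was perfect. The match in Myl9, at exon 3, was at a site seen in 6 livers. Those in Myh11 and Tpm2 were at sites seen in 1 liver each. No site seen in more than 6 livers held a match, and none over the exons printed above did. Over the 70190 exonic sites of all protein-coding genes 2.61% held a match and 31 were perfect. The median GC content of these windows was 54.7% for the members and 49.3% for all genes.

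Across groups, 5 of the 10 members were called in at least 3 of 5 livers of WT Pio, where 6.41% of all protein-coding genes were. In WT HFD-Pio 3 members were, against 3.86% of genes. In WT Control and WT HFD no member was, against 0.0549% of genes in each. In KO livers 5 members met this count under Control, where 21.7% of genes did. The KO Pio livers also had 5 (26.6%), the KO HFD livers 5 (23.3%) and the KO HFD-Pio livers 7 (24.7%). Here and below a gene is called in a liver when a peak overlaps one of its exons by at least 1 bp. The count of members per liver was 6, 6, 5, 0 and 5 in WT Pio and 6, 1, 2, 5 and 3 in WT HFD-Pio. It was 0, 1, 0, 0 and 0 in WT Control and 0 in all 5 livers of WT HFD. Over the 20 KO livers it ran from 3 to 8, so the KO groups overlapped one another, and none of them overlapped WT Control or WT HFD. The share of all protein-coding genes called per liver was separated in the same way. It was 12.1% to 31% in KO livers, 0.206% to 0.869% in WT Control and 0.105% to 0.256% in WT HFD. The WT Pio liver with no member called, replicate 4, had 1905 peaks and a fragment estimate of 263 bp.

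**Figure D2:**
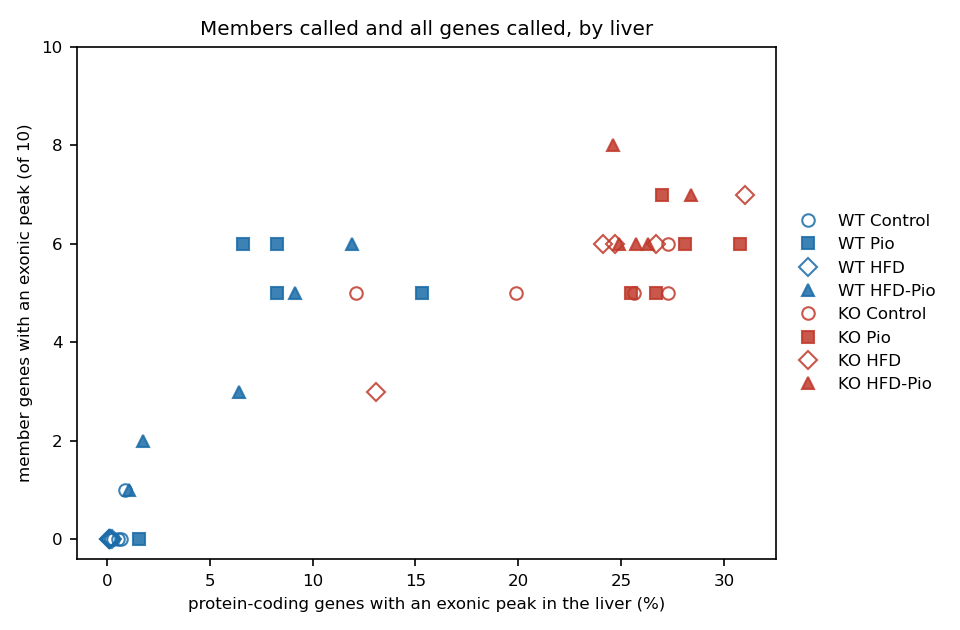
Members with an exonic peak (y axis, of 10) against the percentage of protein-coding genes with an exonic peak (x axis) in each of the 40 livers, WT in blue and KO in red. WT livers ran from 0.105% to 15.3% of genes and from 0 to 6 members, and KO livers from 12.1% to 31% of genes and from 3 to 8 members.

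**Figure D3:**
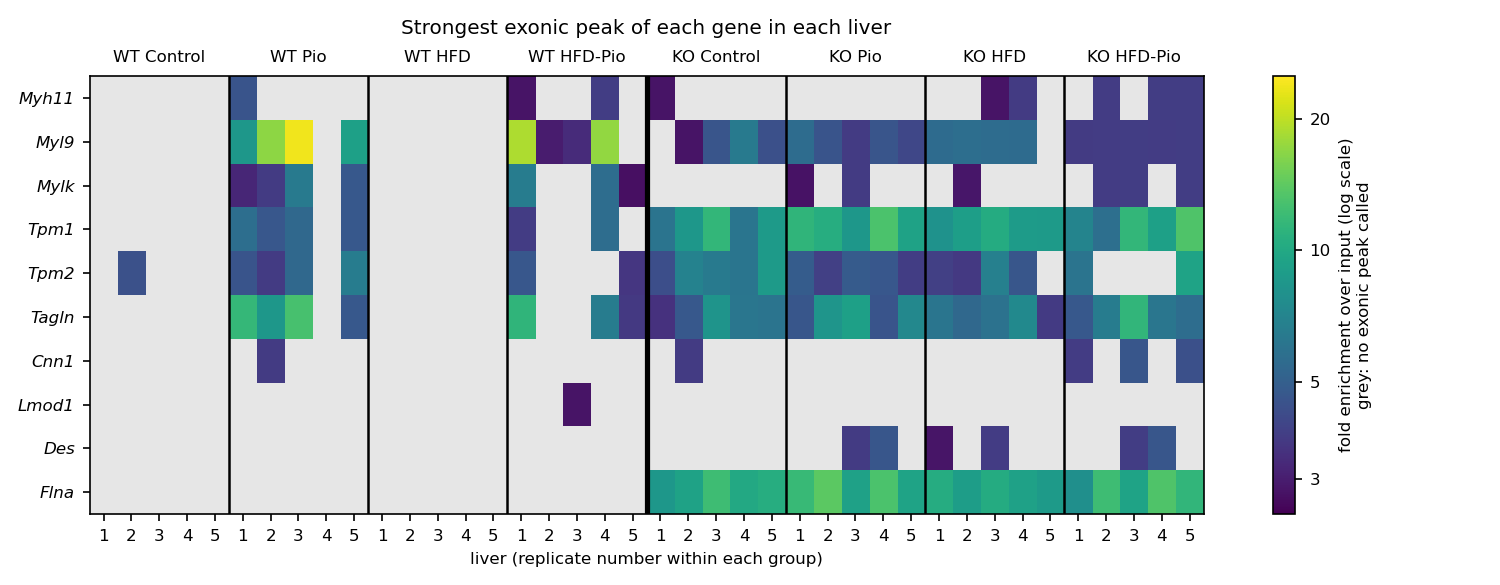
Strongest exonic peak of each member (rows) in each liver (columns, by group and replicate), as fold enrichment over input on a log color scale, with grey for no exonic peak. Myl9, Tpm1, Tpm2 and Tagln were filled in most Pio-treated WT livers and most KO livers, Flna in 20 of 20 KO livers and 0 of 20 WT livers, and Myh11, Cnn1, Lmod1 and Des in 1 to 9 livers of 40.

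Among the thick-filament genes, Myh11, the smooth muscle myosin heavy chain and the most specific marker of that cell type, was seldom called. It lies at chr16:14194535-14291372 (ENSMUSG00000018830.10, 43 exons) and was called in 1 liver of WT Pio, 2 of WT HFD-Pio, 1 of KO Control, 2 of KO HFD and 3 of KO HFD-Pio. Its strongest exonic peak, 4.56-fold over input in WT Pio replicate 1, rested on 5 tags at the summit, and its other exonic peaks rested on 2 or 3. The peaks were scattered over 7 exons, of which exon 41 was reached in 2 WT livers and 1 KO liver and exon 43 in 2 KO livers. A further 5 intervals lay in its introns, 2 of them in WT Control replicate 2.

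Myl9, the regulatory light chain that the kinase phosphorylates, gave the strongest peaks of all members (chr2:156775420-156781658, ENSMUSG00000067818.6, 4 exons). In WT Pio its strongest exonic peak had a fold enrichment of 8.49, 16.8, 23.7 and 9.22 in replicates 1, 2, 3 and 5, on 17 to 25 tags, and no peak in replicate 4. In WT HFD-Pio the values were 18.8, 2.99, 3.33 and 17.1 in replicates 1 to 4, with no peak in replicate 5. These 8 livers split into high values of 8.49 or more and low values of 2.99 and 3.33, and no liver of WT Control or WT HFD had a call. In the 6 livers with high values Myl9 stood between percentiles 83.2 and 98.5 of the called genes of its own liver, and in the other 2 at 10.2 and 19.6. Of these 6 livers 5 were among the short-fragment libraries, and WT Pio replicate 1, at 8.49, was not. The 2 low values, in WT HFD-Pio replicates 2 and 3, had a -log10 q of 0.165 and 0.377 on 5 tags each. Neither peak met a q of 0.05.

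In KO livers the Myl9 peaks had lower fold enrichments, on 2 to 6 tags at the summit. The KO libraries held fewer tags than the WT ones, so this difference cannot be told apart from depth and cutoff. The KO peaks measured 2.83, 4.59, 6.41 and 4.37 in Control replicates 2 to 5, and 5.63, 4.54, 3.73, 4.58 and 4.10 in Pio. In KO HFD they measured 5.59, 5.76, 5.63 and 5.60 in replicates 1 to 4, and in KO HFD-Pio 3.73, 3.77, 3.81, 3.78 and 3.80. The KO groups overlapped, except that all 5 HFD-Pio values lay below the 4 HFD values, and each of these HFD-Pio peaks rested on 3 tags. Over all protein-coding genes the median fold enrichment of exonic peaks was also lower in KO HFD-Pio, 3.81 against 4.53 in KO HFD. Exon 2 was under a peak in 8 WT and 12 KO livers and exon 4, the last, in 3 WT and 13 KO livers. Exon 1, which is not coding, had no peak.

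Mylk, the myosin light chain kinase, was called in about as many WT as KO livers, 7 against 6 (chr16:34745210-35002420, ENSMUSG00000022836.11, 32 exons). In WT Pio its strongest exonic peak was 3.21, 3.74, 6.38 and 4.69 in replicates 1, 2, 3 and 5. In WT HFD-Pio it was 6.56, 5.71 and 2.75 in replicates 1, 4 and 5. Among KO livers 3 given HFD-Pio, 2 given Pio and 1 given HFD had a call, between 2.80 and 3.81 and on 2 or 3 tags each, and no KO Control liver did. The WT peaks lay at the 3′ end, over exon 30 in 4 livers, exon 32 in 5 and exon 31 in 1, with 1 more over exon 27. Exons 30 to 32 are the ones that both annotated protein-coding transcripts of the gene hold. The shorter is telokin, a protein made from the 3′ end of Mylk that lacks the kinase. Mylk also had the most intronic intervals of any member, 11 of its 28.

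Of the thin-filament genes, Tpm1 and Tagln were called in every KO liver. Tpm1 encodes an α-tropomyosin that is made in many cell types through alternative exons (chr9:67022590-67049406, ENSMUSG00000032366.15, 14 exons). Its strongest exonic peak in KO Control was 6.07, 8.49, 11.5, 6.10 and 8.75, and in KO Pio 11.3, 10.5, 8.43, 13 and 9.40. In KO HFD it was 8.12, 9.08, 10.3, 8.86 and 8.76, and in KO HFD-Pio 7.07, 5.79, 11.4, 9.26 and 13.3. All 4 KO groups overlapped. In WT Pio the values were 5.77, 4.68, 5.47 and 4.69 in replicates 1, 2, 3 and 5, and in WT HFD-Pio 3.75 and 5.71 in replicates 1 and 4. Every WT value lay below the lowest KO value of 5.79.

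The exons of Tpm1 were not covered alike. Exons 5 and 6, held by all 16 protein-coding transcripts, were under a peak in 19 and 20 KO livers, and the last exon, 14, in 6 WT and 19 KO livers. Exons 2 and 3 are used one in place of the other, and the first of them is the one known from smooth muscle. Exon 2 was under a peak in 0 WT livers and 1 KO liver, and exon 3 in 1 WT and 15 KO livers, although both are 126 bp long. The next such pair, exons 8 and 9, both of 76 bp, was under a peak in 3 WT and 8 KO livers and in 0 WT and 10 KO livers. Exon 4, which starts the short tropomyosins, and exon 10 had no peak in any liver.

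Tpm2, the β-tropomyosin, was called less evenly over the KO groups than Tpm1 (chr4:43514711-43523765, ENSMUSG00000028464.16, 11 exons). It was called in 5 livers of KO Control, 5 of KO Pio, 4 of KO HFD and 2 of KO HFD-Pio. Its strongest exonic peak was 4.35, 6.95, 6.43, 6.10 and 8.75 in KO Control and 4.87, 3.88, 4.84, 4.69 and 3.79 in KO Pio. The KO Control values lay above all KO Pio values in 4 of 5 livers. In KO HFD it was 3.86, 3.67, 6.80 and 4.62 in replicates 1 to 4, and in KO HFD-Pio 6.08 and 9.48 in replicates 1 and 5. In WT Pio it was 4.56, 3.74, 5.47 and 6.57 in replicates 1, 2, 3 and 5, in WT HFD-Pio 4.69 and 3.60 in replicates 1 and 5, and in WT Control 4.44 in replicate 2. That last peak was the only exonic peak of any member in the 10 WT livers not given Pio. It only touched exon 11, covering 1.14% of the exonic bases of Tpm2, and its summit lay outside the exons.

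Tagln encodes transgelin (SM22), a calponin-family protein that binds actin and marks smooth muscle (chr9:45929619-45936058, ENSMUSG00000032085.5, 6 exons). All 64 of its intervals lay over exons. Its strongest peak in WT Pio was 11.6, 8.42, 12.8 and 4.69 in replicates 1, 2, 3 and 5, and in WT HFD-Pio 11.3, 6.59 and 3.66 in replicates 1, 4 and 5. In KO livers it was 3.47, 4.72, 8.26, 6.18 and 6.08 in Control and 4.61, 8.32, 9.25, 4.54 and 7.30 in Pio. It was 6.10, 5.42, 5.95, 7.45 and 3.70 in HFD and 4.71, 6.58, 11.3, 6.17 and 5.70 in HFD-Pio. The WT and KO values overlapped. Exon 3 was under a peak in 6 WT and 19 KO livers, exon 4 in 7 WT and 10 KO livers and the last exon in 4 WT and 17 KO livers, while exons 1 and 2, which are not coding, had no peak.

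Cnn1, the smooth muscle calponin, and Lmod1, a leiomodin that starts actin filaments, were at the low end. Cnn1 (chr9:22099216-22109630, ENSMUSG00000001349.5) had 5 intervals, all over exons, in 1 liver of WT Pio, 1 of KO Control and 3 of KO HFD-Pio, with a strongest value of 4.65 and 3 or 4 tags at each summit. Lmod1 (chr1:135324807-135368065, ENSMUSG00000048096.7) had 1 exonic peak, of 2.82 on 3 tags, over exon 2 in WT HFD-Pio replicate 3, and 1 intronic interval in the same liver.

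Of the genes that tie the filaments together, Des was seldom called and Flna was called throughout the KO livers. Des encodes desmin, the intermediate filament of muscle (chr1:75360329-75368579, ENSMUSG00000026208.9, 9 exons). Its 7 intervals all lay over exons, in 2 livers each of KO Pio, KO HFD and KO HFD-Pio, with a strongest value of 4.64, and 6 of those livers had the peak over exon 9, the last, which is almost wholly untranslated.

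Flna encodes filamin A, which cross-links actin in nearly all cells and is therefore the least specific to muscle of the members (chrX:74223461-74249820, ENSMUSG00000031328.15, 48 exons). Its strongest exonic peak was 8.49, 9.43, 12.3, 10.1 and 10.5 in KO Control and 11.8, 14, 9.36, 13 and 9.51 in KO Pio. It was 10.4, 9.03, 10.3, 9.34 and 8.76 in KO HFD and 7.86, 12.3, 9.53, 13.3 and 11.4 in KO HFD-Pio. All 4 KO groups overlapped, and no WT liver had a peak of any kind over the gene. Between 24 and 44 of its exons were under a peak in each KO liver. Peaks covered 60.9% ± 15.4 of its exonic bases in KO Control, 72.1% ± 9.80 in KO Pio, 65.5% ± 11.8 in KO HFD and 66.4% ± 3.89 in KO HFD-Pio (SD, n = 5 each). Exons 3, 22, 31, 37, 41, 45, 46 and 48 were under a peak in all 20 KO livers, and exon 4 in 6, the fewest among the 46 exons reached. The exons with no peak were exon 1, which is not coding, and exon 30, which is 24 bp long and held by 1 of 6 transcripts. Only 5 of the 491 intervals missed an exon, and these had 2 or 3 tags at the summit.

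**Figure D4:**
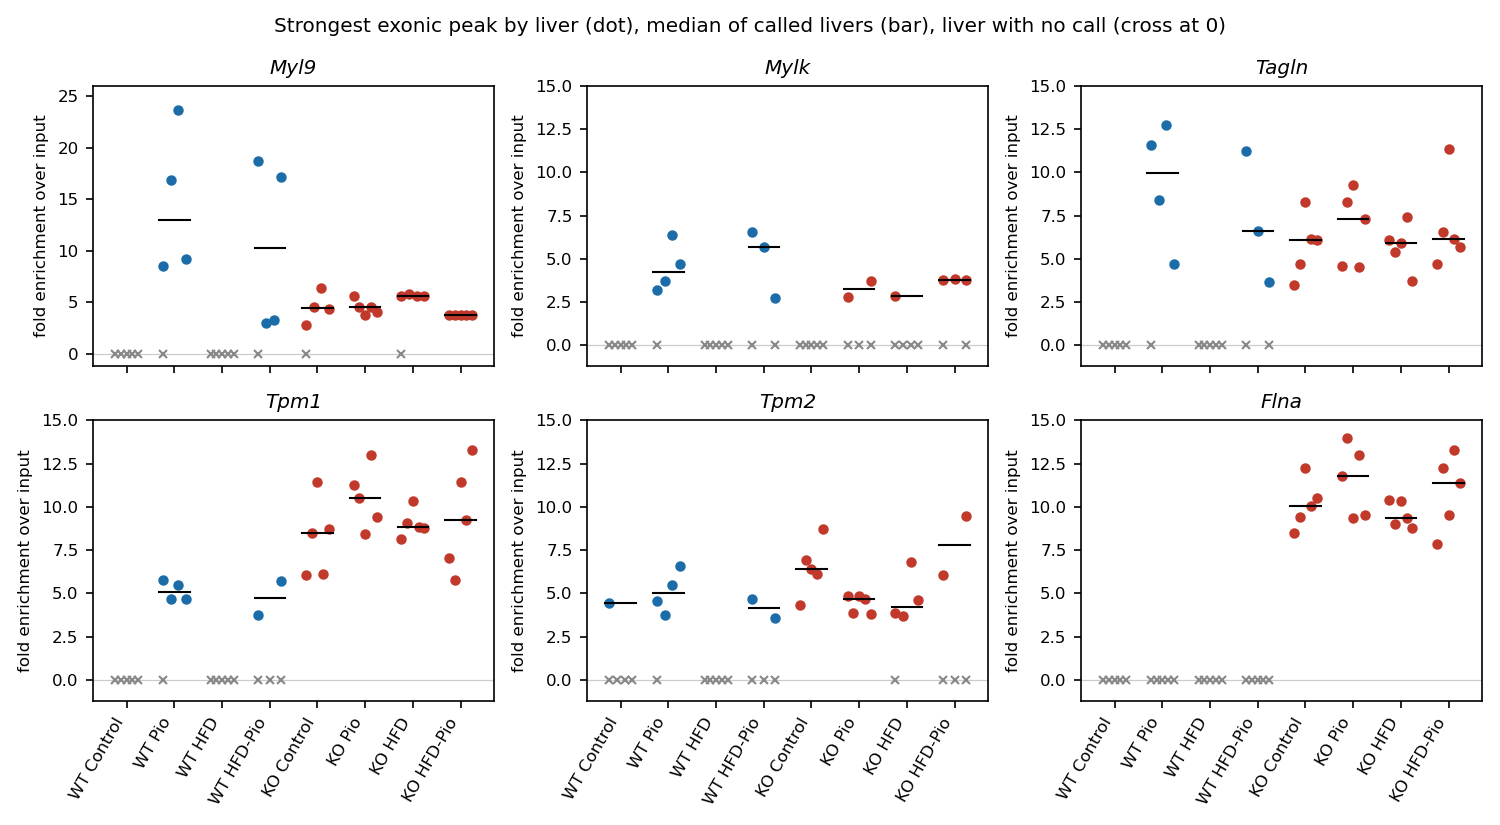
Strongest exonic peak (y axis, fold enrichment over input) in each of 5 livers per group (dots, WT in blue and KO in red) for Myl9, Mylk, Tagln, Tpm1, Tpm2 and Flna, with a bar at the median of the called livers and a cross at 0 for a liver with no call. Myl9 reached 23.7 in WT Pio and at most 6.41 in KO livers, while Flna ran from 7.86 to 14 in KO livers and had no call in WT livers. WT and KO libraries also differed in depth and cutoff.

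**Figure D5:**
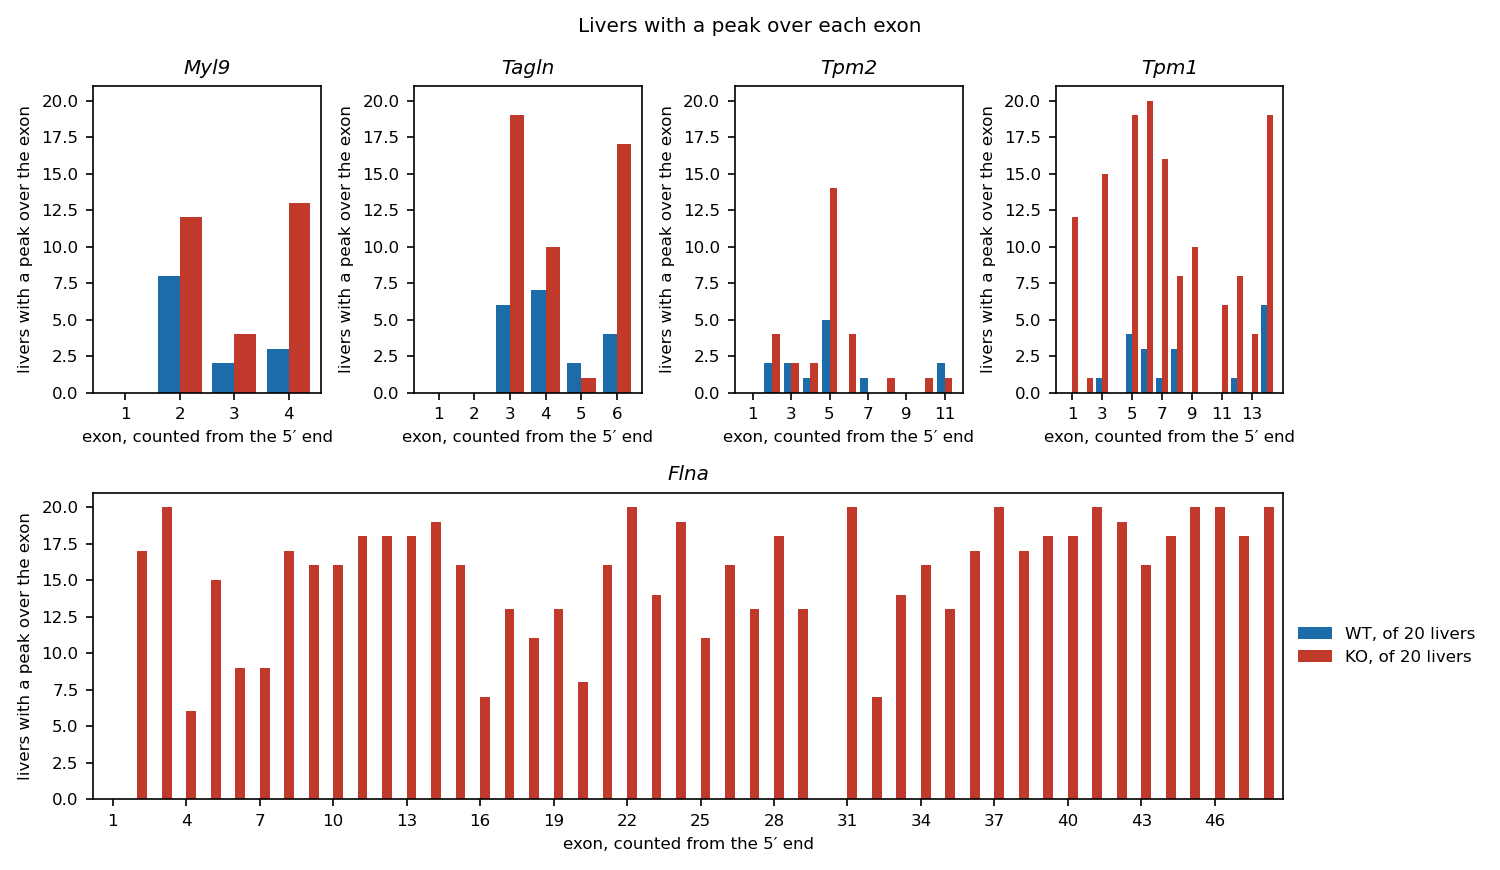
Number of livers with a peak over each exon (y axis, of 20 WT livers in blue and 20 KO livers in red) against exon number from the 5′ end of the gene (x axis), for Myl9, Tagln, Tpm2, Tpm1 and Flna. In Tpm1 exon 6 was reached in 20 KO livers and exon 4 in none, and in Flna 46 of 48 exons were reached in KO livers and none in WT livers.

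The distance of peak ends from exon ends was measured next. In KO livers the median distance from the end of a member peak to the nearest exon end was 46 bp, against 101 bp over all genes. Flna held 486 of the 761 exonic member peaks in KO livers, and the distances were not measured without it. In the 6 short-fragment WT libraries the median distance was 40.5 bp for the members and 49 bp over all genes. The share of ends within 10 bp of an exon end was 15.4% for the members and 9.24% over all genes in KO livers. In the short-fragment libraries it was lower for the members, 14.4% against 19.2%. In those 6 libraries 85.7% of 77 member intervals overlapped an exon and 89.1% of their bases were exonic, at a median width of 58 bp. In the other Pio-treated WT libraries 84.6% of 13 member intervals did. The summit itself lay in an exon for 82.4% of member peaks in KO livers, against 78.8% over all genes. In WT livers it did so for 78.9% of member peaks, against 36.5% over all genes. It lay in coding sequence for 72.6% of member peaks in KO livers, 63.8% without Flna, against 45.3% over all genes. The strongest intronic interval over any member had a fold enrichment of 4.50. The median exonic one was 5.37 in KO livers, 4.69 without Flna, and 3.86 in WT livers.

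For the comparison of treatments, gained means that 3 or more of 5 livers of the first group, and none of the second, held the call, and lost means the reverse. The study required a peak in at least 3 livers of the group with more binding, and the requirement of none in the other group was added here. With Pio on the control diet 4 members were gained in WT livers, namely Myl9, Mylk, Tpm1 and Tagln, where 6.21% of all genes were gained. With Pio on HFD 3 were gained in WT livers, namely Myl9, Mylk and Tagln, where 3.79% of genes were. That count was 0 when all libraries were held to the q cutoff of 0.05 (2.03% of genes). It was 1, Myl9, without replicate 1, 4 or 5 of WT HFD-Pio (1.41% to 1.58% of genes). Pio on the control diet gained 0 members in KO livers (0.911% of genes), and Pio on HFD gained 1, Cnn1 (0.375% of genes). The latter was 0 when at least 4 tags were required at the summit (0.174% of genes). Without the 6 short-fragment libraries, and with a call required in every liver left, the counts in WT livers were 0 members on the control diet (1.17% of genes) and 1, Myl9, on HFD (0.604% of genes). The part of those libraries in the result was not tested further. Without them, the Myl9 call on HFD rested on replicates 2 and 3 of WT HFD-Pio, whose Myl9 peaks did not meet a q of 0.05. The same peaks entered the count of 1 without replicate 1, 4 or 5.

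The diet comparisons held few members. HFD against Control gained 0 members in WT livers (0% of genes) and 0 in KO livers (0.435%). HFD-Pio against Pio gained 0 in WT livers (0.0275%) and 2 in KO livers, Myh11 and Cnn1 (0.16%), each on 3 livers. Neither was gained with at least 4 tags required (0.142% of genes). No member was lost in any of the 4 Pio, 4 diet and 4 genotype comparisons. The share of all genes lost was 0% for Pio on either diet and for HFD against Control in WT livers and 0.183% for HFD-Pio against Pio. In KO livers it was 0.0961% for Pio on the control diet, 0.247% for Pio on HFD, 0.16% for HFD against Control and 0.641% for HFD-Pio against Pio.

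Between genotypes, KO livers gained 4 members over WT livers in Control, namely Myl9, Tpm1, Tagln and Flna (21% of genes), and 5 in HFD, the same with Tpm2 (23.1%). In Pio 1 was gained, Flna (16.9%), and in HFD-Pio 2, Cnn1 and Flna (16.4%). Flna was the member gained in all 4. Of all genes, 0.0229% were lost in KO livers against WT livers on Control and on HFD, 1.06% on Pio and 0.769% on HFD-Pio. These counts carry the depth and cutoff difference between the genotypes.

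Whether a peak was stronger, rather than present, was tested with limma on the log2 fold enrichment of the strongest exonic peak, centred on the median gene of each liver, over all genes called in all 10 livers of a contrast. No gene passed an adjusted p of 0.05 with at least a 2-fold difference (0% of genes) in any of the 8 Pio and diet contrasts. In WT livers only 10 to 94 genes could be tested and no member was among them, with 0 or 1 gene at an unadjusted p under 0.05 in each. In KO livers 1759 to 2834 genes were tested, of which 76 to 127 had an unadjusted p under 0.05.

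Among the members tested, Tpm2 had the largest difference. Its centred log2 fold enrichment was -0.68 in KO Pio and -0.04 in KO Control, a difference of -0.64 (SE 0.17, 95% interval -0.98 to -0.29, limma adjusted p = 0.417 over 2003 genes). It was lower in KO Pio, but the adjusted p missed the threshold. In the same contrast Tpm1 differed by 0.29 (limma adjusted p = 0.939), Tagln by 0.14 and Flna by 0.07 on the log2 scale (limma adjusted p = 0.992 for both). With Pio on HFD the KO difference was 0.04 for Tpm1, 0.28 for Tagln and 0.21 for Flna (limma adjusted p from 0.981 to 0.993). With HFD against Control it was 0.13 for Tpm1, -0.03 for Tagln and -0.12 for Flna (limma adjusted p = 0.994 for each). With HFD-Pio against Pio it was -0.14 for Myl9, -0.11 for Tpm1, 0.12 for Tagln and 0.01 for Flna (limma adjusted p of 0.999 for each). Tpm2 aside, the 95% intervals of these differences lay between -0.48 and 0.68 log2 units, so a 2-fold difference in either direction lay outside each of them.

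Other smooth muscle genes were read in the same way. Of 30 listed, 8 were called in at least 3 of 5 livers of WT Pio and 5 of WT HFD-Pio, and 9, 12, 11 and 13 in the KO groups in the order of treatments used above, with 0 in the WT groups without Pio. The most often called were Acta2, smooth muscle α-actin, in 30 of 40 livers, Ppp1r12a, a subunit of myosin phosphatase, in 26, Tagln2, a relative of transgelin, in 23, and Vcl, vinculin, in 23. Acta2 had a peak in all 20 KO livers, in all 10 Pio-treated WT livers and in no other. Myocd, the coactivator that drives the smooth muscle program, was called in 1 liver, and Itga8, Kcnmb1, Pgm5, Pdlim3, Hspb1 and Ldb3 in none.

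Lists for other cell types are given for the same livers. Their part in the members' peaks was not tested. Of 15 stellate cell and fibroblast genes 4 were called in at least 3 of 5 livers of WT Pio and 5 of WT HFD-Pio, and 7 to 9 in the KO groups, led by Vim in 29 livers, Col1a2 in 26, Col1a1 in 25 and Col3a1 in 22. From this list Hand2, Colec11 and Ecm1 were called in none, Lrat in 1 liver, and Reln and Rgs5 in KO livers only. All 10 neuron genes were called in every KO group and 1 in each Pio-treated WT group, led by Tubb3 in 29 livers. Of 20 striated muscle genes 2 were called in each Pio-treated WT group and each KO group, the actins Acta1 in 30 livers and Actc1 in 27, whereas Ttn was called in 3 livers and Myh1, Myh2, Myh6 and Mb in none. Of 10 intestinal epithelium genes 4 were called in each Pio-treated WT group and 0 in the KO groups, led by Krt20 in 8 livers, and Fabp2, Tff3, Alpi and Sis were called in none. Of 20 hepatocyte genes 2 were called in each Pio-treated WT group, Pck1 and Ass1, and 1 in each KO group, Ttr. Ttr led with 21 livers, 20 of them KO and 1 of WT Control. Of the list 9, among them Apob and Cps1, were called in none. Of 10 endothelial genes at most 1 was called in any group, and the 5 with any call, among them Pecam1, were called in 5 livers each. Counted per liver, the hepatocyte list ran from 0 to 9 in WT Control, 1 to 2 in WT Pio, 0 to 2 in WT HFD-Pio and 1 to 2 in the KO groups. All of these lists had 0 genes called in at least 3 of 5 livers of WT Control and WT HFD. Counted per liver, the other smooth muscle list ran from 4 to 12 in WT Pio, 4 to 10 in WT HFD-Pio and 4 to 15 in the KO groups, and from 0 to 2 in WT Control.

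The members did not all follow one pattern over the livers. The percentage of exonic bases under peaks in each liver was set against the mean of that percentage over the other 9 members, as a Spearman correlation over 40 livers that share the genotype and depth difference. The correlation was 0.901 for Tpm1, 0.850 for Tagln, 0.835 for Flna, 0.785 for Myl9 and 0.624 for Tpm2. It was 0.419 for Des, 0.330 for Myh11, 0.289 for Cnn1, 0.262 for Mylk and -0.105 for Lmod1. Flna weighed most in these means, apart from its own comparison. Its KO group means of 60.9% to 72.1% were the highest of the members, and it had no call in WT livers. How far the correlations rest on Flna was not tested. Other protein-coding genes among those most like the mean of the 10 members by this measure were Arf1 (0.967), Khdrbs1 (0.963), Itm2c (0.958) and Ctnnd1 (0.957). Each of these was called in all 20 KO livers and in 6 or 7 WT livers, and none of them belongs to a muscle list used here.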

How the data were processed

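RXR ChIP-Seq peak lists of 40 livers were analysed, and the 40 inputs entered only through them. The authors sequenced single 50-base reads, aligned them to mm10 with Novoalign and called peaks per liver with MACS2 2.1.1.20160309, keeping 1 tag per position. The deposited tables hold, per peak, the pileup signal in tags, the ratio (fold enrichment over input), and -log10 p and -log10 q. They hold no reads per site, so counting intervals and the study's count test were not available, and the tags at a summit give the depth behind a peak.

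Peaks were joined to GENCODE M21 (overlap of at least 1 bp) in Python 3.11.15 with pandas 2.3.3, sequences were read with pysam 0.24.0, and transcripts were compared with blastn 2.17.0. Strength was tested with limma 3.58.1 in R 4.3.3, with Benjamini-Hochberg adjustment over all genes tested. The code was tested on simulated data. All 10 members are named, up to 4 leading genes of each other list, and the 5 genes most alike in pattern, of which 1 is not reported here. The members and lists were chosen with earlier results of these data known.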

Additional observations from a re-analysis of the deposited data

Results flagged for a closer look

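In 49 groups of 5 livers, the highest or lowest value was checked for standing apart from the other 4 (Dixon's test at 95%), and 5 did. Chance gives about 1 in 20 for continuous values, a rate that does not apply to the small whole-number counts of members. Replicate 4 of WT Pio had 0 members called, against 5 or 6 in the other livers of its group. Of all genes, 1.58% were called in it, against 6.64% to 15.3% in the others. Replicate 5 of KO HFD had 3 members, against 6 or 7, and 13.1% of all genes, against 24.1% to 31%. Replicate 2 of WT Control had 1 member, against 0, and 0.869% of all genes, against 0.206% to 0.691%. Replicate 2 of KO Control had 6 members, against 5, and 27.3% of all genes, against 12.1% to 27.3%. In these last 2 livers the difference was a single gene. The other 4 counts of each group were equal, so any count that differed stood apart by construction. The strongest Tagln peak in replicate 3 of KO HFD-Pio was 11.3-fold over input, against 4.71 to 6.58 in the other livers of its group.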

How the results depend on the processing

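Where at least 1 member was gained, the number stayed within 1.5 times its reported value in 42 of 68 values under other settings, and in 65 of 80 with 1 liver left out. For Pio on the control diet in WT livers, the 4 gained members became 2 at -log10 q of at least 5 (2.59% of genes). They were also 2 at a fold enrichment of at least 5 (2.99%). Without the short-fragment libraries, where every liver left had to be called, the count was 0 (1.17%). For Pio on HFD in WT livers, the 3 gained became 0 at a common q cutoff of 0.05 (2.03% of genes). The count was also 0 at -log10 q of at least 5 (0.934%) and at a fold of at least 5 (1.37%). It was 1 with at least 4 tags (2.27%), with 4 of 5 livers required (1.41%), or without the short-fragment libraries (0.604%). Each of these counted the Myl9 peaks of WT HFD-Pio replicates 2 and 3, which did not meet a q of 0.05. In KO livers the 1 member gained with Pio on HFD became 0 under 5 settings. These were -log10 q of at least 5 (0.22% of genes), a fold of at least 5 (0.114%) and at least 4 tags (0.174%). The others were coding sequence only (0.334%) and 4 of 5 livers (0.0686%). The count became 2 with 1 call allowed in the other group (1.48%). The 2 gained in KO HFD-Pio against KO Pio became 0 under those same 5 settings, where 0.0137% to 0.247% of genes were gained. The 2 gained in KO over WT livers on HFD-Pio became 1, Flna, under them (6.96% to 13.3% of genes). The 1 gained on Pio became 2 at -log10 q of at least 5 (8.43%). Losses of 0 became 1, Tpm2, for KO Pio against KO Control at -log10 q of at least 5 (0.0412% of genes). A fold of at least 5 gave the same loss (0.0869%). Losses became 1, Myl9, for KO HFD-Pio against KO HFD under both of these (0.156% and 0.302%) and with at least 4 tags (0.288%). With at least 4 tags they also became 1, Myl9, for KO HFD-Pio against KO Pio (0.471%) and KO against WT on HFD-Pio (0.664%). For KO against WT on Pio they became 1, Mylk, with at least 4 tags (1.27%) and with coding sequence only (1.19%). The tag and coding settings were chosen after seeing the data. The cause of these changes was not tested beyond each setting's own construction.

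With 1 liver left out, gains ran from 4 to 5 for WT Pio against Control (4.26% to 6.28% of genes). They ran from 1 to 3 for WT HFD-Pio against HFD (1.41% to 3.79%), at 1 without replicate 1, 4 or 5 of HFD-Pio. They ran from 0 to 2 for KO HFD-Pio against KO HFD (0.165% to 0.938%), at 0 without replicate 1, 3 or 5 of KO HFD-Pio. For KO HFD-Pio against KO Pio they ran from 0 to 2 (0.0503% to 0.375%). The range was 1 to 2 for KO against WT on HFD-Pio (13.8% to 18.3%). The mean share of member peaks over exons in KO livers, 98.5%, became 82.6% when only the summit was counted.

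The limma counts stayed at 0 under all 53 other settings and in 79 of 80 fits with 1 liver left out. Without replicate 5 of KO Control the count for KO Pio against KO Control was 1 (Cdc27, lower by -1.07 log2, limma adjusted p = 0.0388). The Tpm2 difference in that contrast ran from -0.71 to -0.53 over 15 alternatives, with limma adjusted p from 0.193 to 0.814. Small member differences changed sign in 5 of 90 values. Tpm1 on KO HFD-Pio against KO HFD was -0.015 with the mean over peaks and -0.0068 without centring, and on KO HFD-Pio against KO Pio 0.019 with pileup scaled to tags kept. Without centring Tagln was 0.018 on KO HFD against KO Control, and Flna was -0.091 on KO HFD-Pio against KO Pio. With 1 liver left out 17 of 140 changed sign. For KO Pio against KO Control Tagln ran from -0.0073 to 0.31 and Flna from -0.00042 to 0.13. For KO HFD-Pio against KO HFD Tpm1 ran from -0.10 to 0.21, and for KO HFD against KO Control Tagln ran from -0.15 to 0.090. For KO HFD-Pio against KO Pio Tpm1 ran from -0.25 to 0.051, Tagln from -0.069 to 0.28 and Flna from -0.058 to 0.11.

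In the KO Pio and diet contrasts, same-numbered livers of 2 groups correlated at -0.043 to 0.024 in their deviations from the group means. No shared effect of the replicate number was seen there. It was not measured among WT livers, where few genes could be tested, or between genotypes. With the replicate number as a block the limma counts were again 0, and the adjusted p of Tpm2 was 0.316.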
